A study of Mus musculus with 4 samples.

Results

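This account covers the narrow stretches of mouse DNA that were open in every library of the series: autosomal merged regions under 1000 bp with a peak in all 4 peak lists. The members were chosen by the presence of a peak in each list and by the merged width, where peaks of the lists were merged if they overlapped by at least 1 bp. There were 17665 such regions among 83319 merged regions in the whole series. They made up 94.3% of the 18734 autosomal regions with a peak in all libraries, called common regions here, and 21.9% of the 80820 autosomal merged regions. The other 1069 common regions were 1000 bp or wider.

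The samples were adipose progenitors, the mesenchymal precursors of fat cells, taken fresh and with no further treatment from C57BL/6 mice at 16 weeks of age. The 2 subcutaneous libraries are called SAT 1 and SAT 2 and the 2 visceral libraries VAT 1 and VAT 2, and all mice shared strain and age. Neither separate animals nor pools are mentioned for the libraries of a depot, so their spread may be technical, and p-values measure that spread only. The files name no genes, so the labelled cell type could not be checked against its markers here.

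ATAC-seq uses a transposase that cuts accessible DNA and leaves sequencing adapters there, so a peak marks a place where the nucleosome array is interrupted or loose. In mammalian cells such places are mostly promoters, enhancers and sites of chromatin-folding proteins. Promoters of widely used genes and binding sites of the insulator protein CTCF are known to be open in most cell types, whereas enhancers tend to be open in few. No gene annotation or sequence of build mm9 was used here, so the members are given by position (counted from 1), and genes near them and their sequences were not analysed here.

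The lists held 56823 peaks for SAT 1, 22845 for SAT 2, 56907 for VAT 1 and 62279 for VAT 2. The SAT 2 list was the shortest, and it limits every statement on presence in all libraries. Without SAT 2, 33422 narrow regions had a peak in each of the other 3 lists, while leaving out any other library gave 18216 to 18405. The lists give no read counts, so the depth behind a peak is unknown.

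The members were short blocks built mostly from a single peak per library. Their merged width had a median of 511 bp, the middle 50% between 375 and 671 bp and the narrowest at 105 bp. Under 500 bp were 8498 members (48.1%), under 200 bp were 402, and 746 measured 900 bp or more. Together they covered 9.35 Mb, against 1.24 Mb for the wide common regions. Exactly 1 peak per library was found in 15283 members (86.5%) but in only 278 of the 1069 wide regions (26.0%). At least 2 peaks lay in 5.35% of members in SAT 1, 5.41% in SAT 2, 4.70% in VAT 1 and 2.73% in VAT 2, so a wide merge came more often from several neighbouring peaks. Width is part of the rule that chose the members, and these values are a description.

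Peaks of the 4 libraries mostly shared bases within a member. A member is by rule a chain of overlapping peaks under 1000 bp wide. Closeness of its peaks is thus largely set by the rule, and these values are a description. Of the 15283 members with 1 peak per library, 15173 (99.3%) had bases covered by all 4 peaks, and in 110 the peaks only formed a chain. The shared core had a median of 202 bp, or 47.3% of the merged width. From library to library the peak start moved over a median range of 107 bp, and so did the peak end. Within members the peaks had a median width of 382 bp (SAT 1), 378 bp (VAT 1) and 431 bp (VAT 2), but only 217 bp in SAT 2. In the whole lists the median was 215, 223, 220 and 208 bp for SAT 1, VAT 1, VAT 2 and SAT 2. Peaks in members were thus wider than the list in 3 libraries and about as wide as the list in SAT 2.

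The score of a peak is the authors' peak caller value, and it was turned into a percentile within its own list, 100 being the strongest peak. A member with several peaks in a library took the highest. By this measure the members stood high in 3 lists and near the middle of the fourth. In SAT 1 the median member stood at the percentile of 80.01, with the middle 50% of members between 64.4 and 90.9. VAT 1 gave 79.9 (63.7 to 90.8) and VAT 2 gave 83.1 (70.5 to 91.9). In SAT 2 the median was 55.6 (30.2 to 77.3), lower than in any other library. The wide common regions stood higher in every library, with medians of 88.4 in SAT 1, 78.3 in SAT 2, 89.0 in VAT 1 and 90.8 in VAT 2. They too took the highest of several peaks, and only 26.0% of them had 1 peak per library, against 86.5% of members. That measure favours the wide regions, and its part was not tested. Presence and score come from the same peaks, so these positions are a description and were not tested against other peaks. The library medians enter the depot comparison below, with the same limit.

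**Figure D1:**
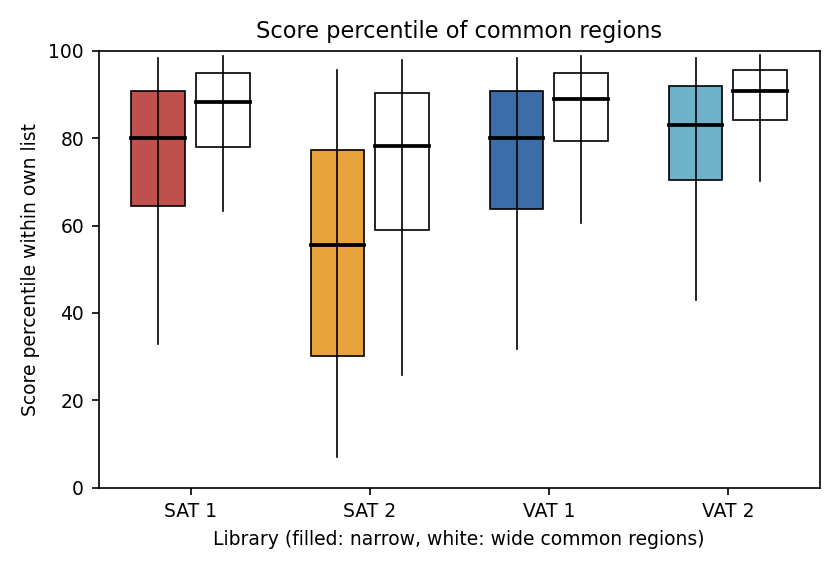
Score percentile within the own list (vertical axis) for each library; filled boxes are the 17665 narrow and white boxes the 1069 wide common regions. Boxes span the middle 50%, thick lines are medians and thin lines reach from the 5th to the 95th percentile of regions; the narrow median is 55.6 in SAT 2 and 79.9 to 83.1 in the others.

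The same peaks filled very different shares of the lists. Of the SAT 2 list, 81.6% of peaks lay in members, against 32.8% in SAT 1, 32.5% in VAT 1 and 29.1% in VAT 2. In the 3 long lists the share climbed with the score. In SAT 1 members held 7.08% of the lowest decile of peaks by score and 84.8% of the highest decile. VAT 1 went from 6.02% to 84.1% and VAT 2 from 1.94% to 86.8%. SAT 2 was nearly flat, at 69.7% in the lowest and 84.9% in the highest decile. In the top decile of every list about the same large majority of peaks therefore lay in members. The libraries parted from decile 9 down, where the share was 71.0% in SAT 1, 70.7% in VAT 1 and 77.0% in VAT 2, against 85.5% in SAT 2. Membership requires a peak in the short SAT 2 list, so these shares are a description.

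**Figure D2:**
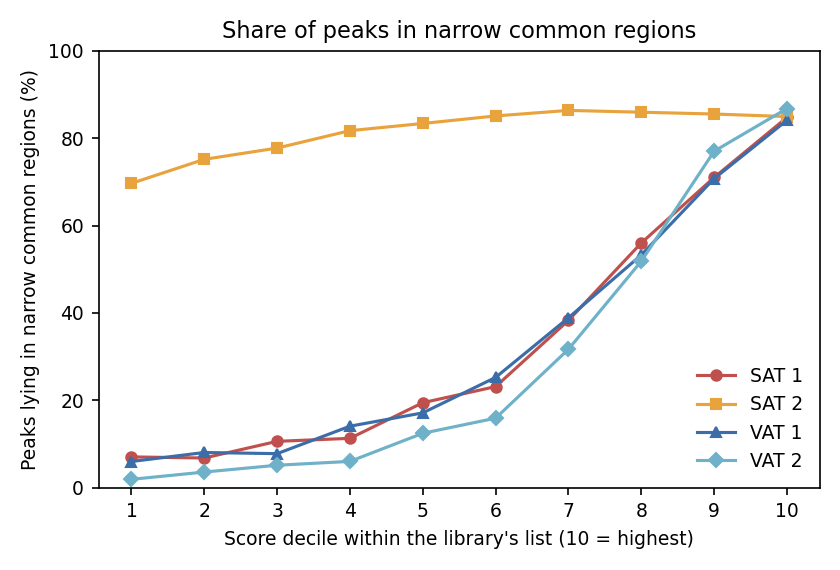
Percentage of a library's peaks that lie in narrow common regions (vertical axis) by score decile of its list, with 10 the highest (horizontal axis); each line is 1 library. SAT 1, VAT 1 and VAT 2 rise from 1.94% to 7.08% in the lowest decile to 84.1% to 86.8% in the highest, while SAT 2 starts at 69.7%.

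Strength in 1 library went only partly with strength in the others. Above the list median in all 4 libraries were 8996 members (50.9%), in the top 10% in all were 1602 (9.07%), and below the median in all were 412 (2.33%). In the top 10% of the single lists were 4814 members in SAT 1, 1950 in SAT 2, 4789 in VAT 1 and 5386 in VAT 2. SAT 2 gave the lowest list percentile in 13425 members (76.0%). To take list length out, each library's score was also ranked among the 18734 common regions alone, again as a percentile, called the common rank. By common rank the weakest library was SAT 1 in 23.6%, SAT 2 in 28.9%, VAT 1 in 23.7% and VAT 2 in 23.8% of members. The 4 common ranks of a member spanned a median of 27.3 points. They lay within 10 points in 1995 members (11.3%) and over more than 50 points in 2035 (11.5%).

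Scores of members ranked most alike in SAT 1 and VAT 1, libraries of different depots. Across the 17665 members Spearman's rho reached 0.829 there. The visceral pair had 0.743, and SAT 1 and VAT 2 had 0.741. Pairs with SAT 2 were lower, at 0.702 with VAT 2, 0.660 with SAT 1 and 0.654 with VAT 1. The 2 pairs of the same depot averaged 0.701 ± 0.059 and the 4 pairs across depots averaged 0.731 ± 0.074 (± SD), which leaves a difference of -0.030, smaller than either SD. Leaving out SAT 1 turned this difference to 0.068. Positions gave the same order at the top: the centres of the peaks lay a median of 28.5 bp apart in SAT 1 and VAT 1, 32.0 bp in VAT 1 and VAT 2, and 39.5 bp in SAT 1 and SAT 2. All pairs share regions chosen for having a peak in each library, and regions are not independent replicates.

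The comparison of subcutaneous with visceral progenitors, which is the study's design, gave no difference in the standing of the members that was larger than the spread between libraries. The mean of the library medians was a list percentile of 67.8 ± 17.2 for SAT and 81.5 ± 2.22 for VAT (SD, n = 2 each). The difference of -13.7 points gave p = 0.667 in a two-sided exact permutation test, where the smallest p that 2 libraries against 2 allow is 0.333. SAT 1 lay at 80.01, between VAT 1 and VAT 2, so the depots overlapped and the low mean of SAT came from SAT 2. Without SAT 2 the difference was -1.79 points and without SAT 1 it was -27.4. With lists of equal length it was -0.604. By common rank it was 0.54 points, but that scale holds every library's median near 50 and says nothing on the depots. Members filled 81.6% of the SAT 2 list and 29.1% to 32.8% of the other lists. The list percentile of members thus depends on list length, and the permutation test cannot separate the depots from it.

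Depot order was then read member by member from the common ranks. Both SAT ranks stood above both VAT ranks in 2655 members (15.03%), against 15.3% of all autosomal common regions. Both VAT ranks stood above both SAT ranks in 2624 members (14.9%), against 14.8% of all autosomal common regions. In 12386 members (70.1%) the depots overlapped. Members supply most of the common regions, and their shares are those of the background. The gap between the depots, from the lowest rank of the higher depot to the highest rank of the lower, had a median of 5.74 points for SAT above VAT and 5.47 points for the reverse. More than 20 points separated the depots in 215 (1.22%) and 216 (1.22%) members. The matching share over all common regions is not given here, so these counts are not read against a background. Since members make up 94.3% of the regions ranked, each library has nearly the same set of common ranks. The scale thus favours a balance of the 2 directions over all members, so that balance is not read as a result. By percentile in the full lists SAT led in 2.56% and VAT in 32.7% of members, a scale on which members stood lowest in SAT 2.

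The 5 members with the largest gap in favour of subcutaneous libraries were mostly very narrow. The first, on chromosome 4 at 60094630 to 60094750, had common ranks of 69.2 in SAT 1, 69.3 in SAT 2, 17.4 in VAT 1 and 5.43 in VAT 2. A site on chromosome 18 at 67240603 to 67240746 had ranks of 53.1, 72.7, 9.15 and 2.90 in the same order. The third, on chromosome 8 at 102371717 to 102371844, had 77.9, 70.7, 21.7 and 28.0. These 3 sites measured 121, 144 and 128 bp, and in each both visceral ranks were at 28.0 or lower. Next came chromosome 7 at 28510756 to 28511100, with ranks of 51.4, 61.5, 10.3 and 2.46. The fifth was on chromosome 6 at 116919687 to 116920301, with 66.9, 61.5, 20.6 and 17.2.

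The 5 members with the largest gap in favour of visceral libraries were wider. The leading site lay on chromosome 1 at 75207153 to 75207617, with common ranks of 14.3 in SAT 1, 7.46 in SAT 2, 72.7 in VAT 1 and 64.4 in VAT 2. The next, on chromosome 7 at 36340232 to 36341131, had 27.0, 22.1, 76.2 and 79.2. Chromosome 5 at 47631893 to 47632233 gave 18.8, 10.7, 67.5 and 67.5. In all of these the subcutaneous libraries ranked in the lowest 30% and the visceral ones above the middle. The remaining pair showed the same order, with 27.0, 4.81, 72.3 and 71.8 on chromosome 4 at 144588212 to 144588713 and 5.85, 7.46, 53.7 and 51.6 on chromosome 12 at 31596126 to 31596761. These regions are the extremes of a ranking by the values shown, so the gaps carry no test.

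Depot order changed with width at the narrow end, a split by width that was made after the values were seen. Among the 402 members under 200 bp, both SAT ranks stood above both VAT ranks in 185 (46.0%, against 15.3% of all autosomal common regions), and the reverse held in 15 (3.73%, against 14.8%). From 200 bp to below 300 bp the shares were 21.2% and 10.4%. From 300 bp upward SAT led in 12.0% to 16.8% and VAT in 14.4% to 17.3% of each class of 100 bp. The 185 sites lay on all 19 autosomes.

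SAT 2 stood farthest from the other libraries in these members. In members under 200 bp the median common rank was 42.3 in SAT 2, 18.8 in SAT 1, 15.5 in VAT 1 and 12.7 in VAT 2. Both subcutaneous medians were above both visceral ones, but SAT 1 was nearer to the visceral libraries than to SAT 2. The depot means were 30.5 ± 16.7 and 14.1 ± 2.01 (SD, n = 2 each), a difference of 16.5 points with p = 0.333 by a two-sided exact permutation test, the smallest possible. The width split was made after the values were seen, so this p-value carries no weight on a depot difference. SAT 1 stood above both visceral ranks in 51.5% and below both in 19.4% of these 402 members, against 31.8% and 32.5% of all members. SAT 2 stood above both in 80.1% and below both in 7.46%, against 35.6% and 34.8% of all members. By percentile in the full lists SAT led in 19.4% and VAT in 16.2% of them, against 2.56% and 32.7% of all members on that scale. Without SAT 2 the rule took in 2600 regions under 200 bp. SAT 1 led in 35.8% of them and trailed both visceral libraries in 29.8%, against 31.1% and 32.2% of all narrow regions in that setting. Without SAT 1 the shares were 74.6% and 9.61% (35.7% and 34.8% of all narrow regions in that setting). Without VAT 1 they were 57.4% and 11.5% (30.9% and 31.8%), and without VAT 2 they were 52.4% and 12.9% (31.8% and 30.7%). In these settings 1 library standing for a depot raises both shares by construction. The limit of 200 bp acts on peak width, whose median in members was 217 bp in SAT 2 and 378 to 431 bp in the other libraries. Peak width and list length thus also set SAT 2 apart, and their part in the result was not tested.

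**Figure D3:**
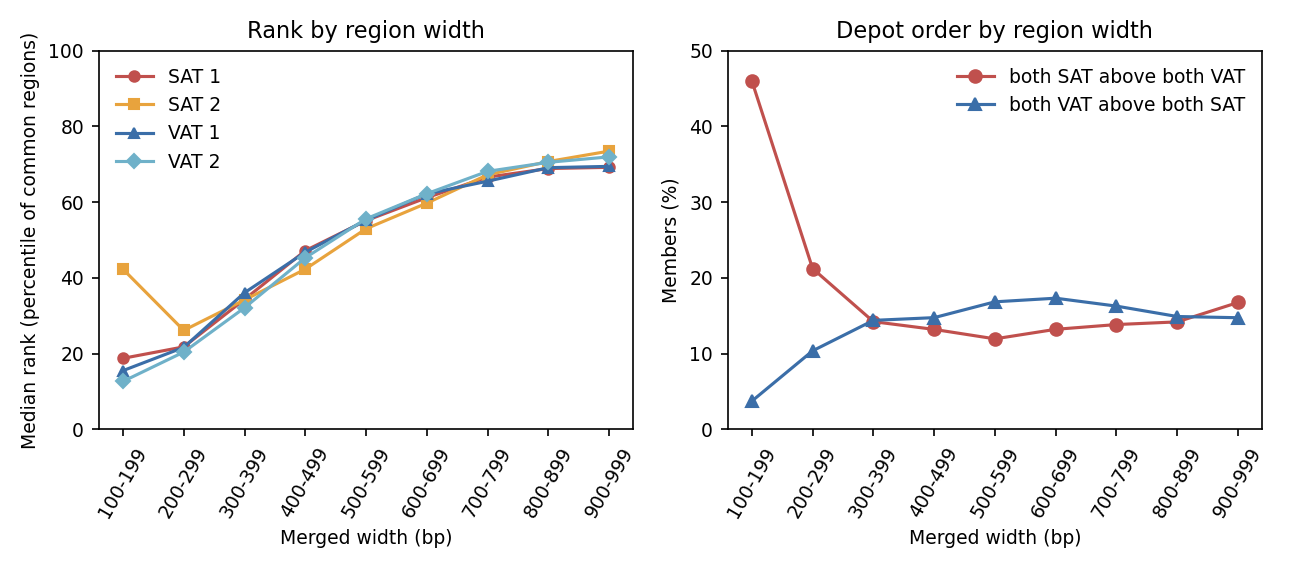
Left, median common rank (percentile among common regions) in each library by merged width of the narrow common regions, in classes of 100 bp; right, percentage of members in each class with both SAT ranks above both VAT ranks or the reverse. All libraries rise with width from 200 bp on; under 200 bp SAT 2 stands at 42.3 against 12.7 to 18.8 in the others, and 46.0% of members have SAT above VAT.

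Wider members ranked higher, until the very top of the lists. Across members the width correlated with the mean of the 4 common ranks (Spearman's rho 0.457, across regions). In the 90 members that were in the top 1% of all 4 lists the relation was the opposite (rho -0.537). Members in the top 5% but not the top 1% of all lists had a median width of 696 bp (592 members), and those in the top 1% but not the top 0.1% had 682 bp (71 members). The 19 members in the top 0.1% of all 4 lists had a median of 296 bp, and 10 of them (52.6%) were under 300 bp against 12.6% of all members. No wide common region among the 1069 reached the top 0.1% in all lists, and 6 reached the top 1%. Of the 17665 members 19 and 90 did so. The wide class is small, so its absence from the top 0.1% is not read as a result.

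The top 0.1% held 58 peaks in SAT 1, 23 in SAT 2, 57 in VAT 1 and 63 in VAT 2. Members of any rank accounted for 54, 20, 53 and 60 of these in the same order, the sex chromosomes for the other 4, 3, 4 and 3. The 19 extreme sites lay on 12 autosomes. Ordered by the list percentile of their weakest library, the first spanned 3109840 to 3110142 of chromosome 12 and scored 2015 in SAT 1, 2391 in SAT 2, 2215 in VAT 1 and 2272 in VAT 2. The next, on chromosome 6 at 103599032 to 103599314, scored 2037, 2202, 2215 and 2272. On chromosome 9 at 35112774 to 35113205 the scores were 1654, 1968, 1859 and 1898. For comparison, the median member had a score of 200 in SAT 1, 97 in SAT 2, 223 in VAT 1 and 237 in VAT 2.

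The site on chromosome 12 at 98299607 to 98300025 followed with 1783, 1923, 1884 and 2002, in the order SAT 1, SAT 2, VAT 1, VAT 2. A second site on chromosome 9, at 24346429 to 24346637, had 1737, 1618, 1685 and 1818. Chromosome 13 at 77578140 to 77578349 gave 1651, 1593, 1642 and 1615. Each of these was high in all libraries. The site on chromosome 4 at 70039123 to 70039318 had 1592, 1524, 1432 and 1539. On chromosome 5, at 60433980 to 60434348, the scores were 1551, 1360, 1523 and 1701. Chromosome 2 at 69193574 to 69193755 had 1743, 1325, 1408 and 1566. The tenth, on chromosome 6 at 9839895 to 9840190, had 1568, 1296, 1500 and 1767. All 10 stood in the top 0.1% of each list, SAT 2 included, which is the rule that picked the extreme sites.

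The remaining 9 extreme sites had lower scores, from 786 to 1260 in SAT 1 and from 787 to 1242 in SAT 2. They spanned 71759907 to 71760092 and 95540166 to 95540526 of chromosome 10, 27564918 to 27565091 of chromosome 7, and 123782176 to 123782345 and 123370937 to 123371310 of chromosome 9. The others spanned 57391241 to 57391809 of chromosome 16, 5860339 to 5860824 of chromosome 3, 68160143 to 68160826 of chromosome 12 and 58187904 to 58188141 of chromosome 19. Of all 19, 2 had both SAT ranks above both VAT ranks and 2 the reverse (10.5% each, against 15.3% and 14.8% of all autosomal common regions), and all their ranks lay near 100.

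The extreme sites had sharper edges than other members and lay farther from other open regions, and distance rose with score in the classes below them too. Their 4 peaks started within a median range of 12 bp and ended within 9 bp, against 107 bp for both ends over members with 1 peak per library and 84 and 64 bp for members between the top 1% and the top 0.1%. Members under 200 bp had a start range of 26 bp, and those from 200 bp to below 300 bp one of 64 bp, with no selection on score. At the first site named, on chromosome 12, all 4 peaks shared 282 of 303 bp. The nearest other merged region was a median of 23381 bp away from the extreme sites, 12599 bp from members between the top 1% and the top 0.1%, 8746 bp from those between the top 5% and the top 1%, and 3765 bp from all members. Within 50 kb on either side 7 of the 19 had no other merged region (36.8%), against 5 of the 71 members of the next class (7.04%) and 489 of all members (2.77%). The farthest from any other member was the site on chromosome 12 at 68160143, at 1385821 bp, and the closest was on chromosome 9 at 123370937, at 730 bp. No repeat annotation was used, and whether these positions hold repeated sequence was not tested.

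**Figure D4:**
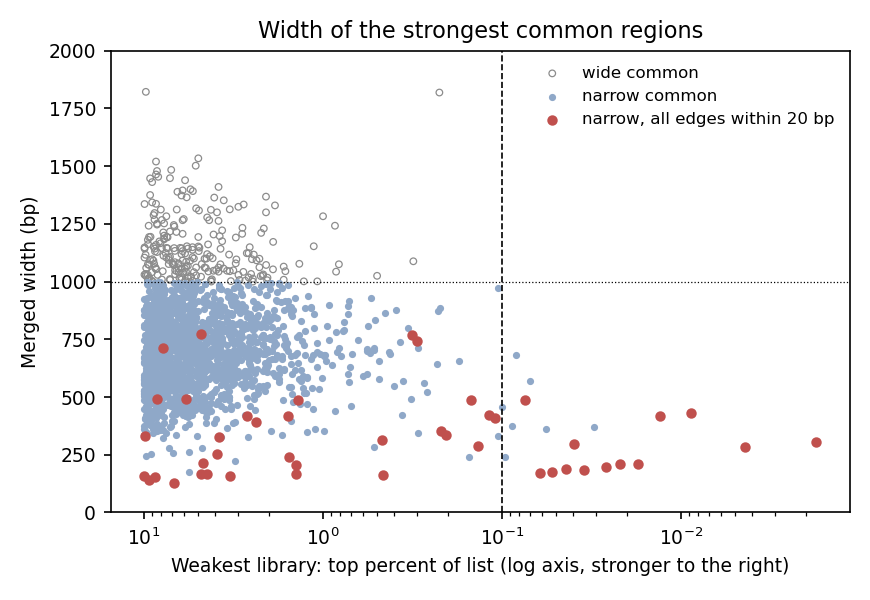
Merged width (vertical axis) against the position of the weakest library's peak in its list, as the top percentage of that list on a log axis with stronger regions to the right, for common regions in the top 10% of all 4 lists. Red points are narrow members whose 4 peaks start within 20 bp and end within 20 bp of each other; right of the dashed line at 0.1% all 19 regions are under 700 bp and 13 are red.

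Sharp edges were then used, after the values were seen, to pick out like sites at any score. The set is not separate from the narrowest members described above, and its rule depends on peak width, which differed between SAT 2 and the other libraries and went with rank, so its depot order is a description only. In 130 members all 4 peaks started within 20 bp and ended within 20 bp of each other. They included 13 of the 19 extreme sites and 23 of the 90 members in the top 1% of all lists. Under 200 bp were 86 of the 130 (66.2%), and 32 (24.6%) had no other merged region within 50 kb. In this set the SAT ranks stood above the VAT ranks in 74 (56.9%, against 15.3% of all autosomal common regions) and below them in 2 (1.54%, against 14.8%). In the 44 of them of 200 bp or wider, the counts were 16 (36.4%) and 2 (4.55%). The median common ranks over the 130 were 71.0 in SAT 1, 81.3 in SAT 2, 44.4 in VAT 1 and 47.7 in VAT 2. In the 44 of 200 bp or wider SAT 1 stood above VAT 1 in 50%, against 50.2% of all members. It stood above both visceral libraries in 45.5% and below both in 22.7%, against 31.8% and 32.5% of all members. The medians of the 44 were 98.8 in SAT 1, 99.7 in SAT 2, 97.1 in VAT 1 and 91.9 in VAT 2.

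At the other end were members weak in every library. The weakest by its best library spanned 105820758 to 105821083 of chromosome 7 and scored 40 in SAT 1, 40 in SAT 2, 38 in VAT 1 and 34 in VAT 2, at list percentiles of 6.87, 5.43, 4.01 and 2.77. Second came chromosome 9 at 3004520 to 3004790, which scored 38, 41, 44 and 46. On chromosome 12 at 96932288 to 96932546 they were 38, 34, 38 and 50. All libraries called these sites, although each stood in the lowest 15% of its list. Chromosome 3 at 78703439 to 78703721 had 46, 50, 45 and 30. The fifth, from 77495734 to 77495986 of chromosome 7, had 32, 42, 55 and 40. The lowest score in any list was 20.

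The width limit cut through a continuous distribution. There were 6 members of 999 bp and 6 common regions of exactly 1000 bp. Just inside the limit, the region on chromosome 1 at 82287429 to 82288427 had list percentiles of 77.3 in SAT 1, 62.4 in SAT 2, 82.1 in VAT 1 and 85.2 in VAT 2. Chromosome 16 at 57927846 to 57928844 gave 94.98, 81.3, 88.7 and 95.7, and at 90934553 to 90935551 on the same chromosome they were 94.9, 98.1, 97.8 and 98.8. Just outside, chromosome 11 at 86570819 to 86571818 had 93.5, 84.6, 94.4 and 92.1. Chromosome 17 at 23939693 to 23940692 had 97.9, 99.6, 99.4 and 97.5, and chromosome 19 at 37281539 to 37282538 had 91.9, 73.9, 87.8 and 96.4. Values on both sides of the limit overlapped.

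Members lay closer to one another than other classes of regions lay to them. From a member to the nearest other member the median distance, edge to edge, was 19120 bp, with the middle 50% between 6802 and 47807 bp. Regions with a peak in 3 libraries were a median of 22046 bp from the nearest member, those in 2 libraries 26356 bp, those in 1 library 28699 bp and wide common regions 36236 bp. The nearest merged region of any kind was a median of 3765 bp from a member, close to the 3708 bp found over all autosomal merged regions. Another member lay within 1 kb of 8.38% of members, within 10 kb of 32.9% and within 100 kb of 89.0%. Weak members had nearer neighbours: in the lowest 10% of the scale of mean common rank the nearest merged region was a median of 1205 bp away, and in the highest 10% it was 8901 bp away. Leaving out SAT 2, which took in more regions, brought the median distance between members down to 9883 bp.

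**Figure D5:**
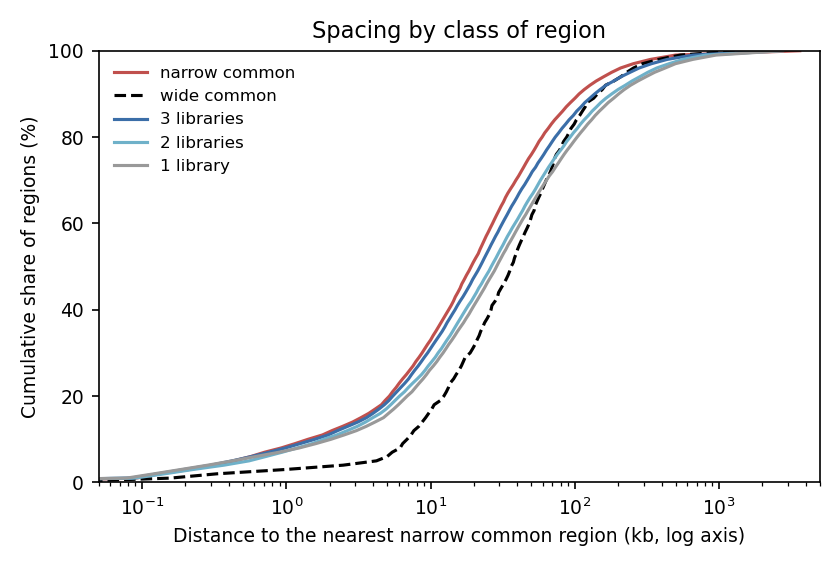
Cumulative percentage of regions (vertical axis) by distance to the nearest narrow common region in kb (log axis), for narrow and wide common regions and autosomal regions with a peak in 3, 2 or 1 library. The curve of the narrow common regions lies left of the others over most of its length, with a median of 19120 bp against 36236 bp for the wide ones.

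Some neighbouring members were separated by only a few bases. The closest pair lay on chromosome 3, at 142603806 to 142604260 and 142604268 to 142605008, with 7 bp between them. A pair on chromosome 7, at 16990889 to 16991277 and 16991286 to 16991699, was 8 bp apart. The third, on chromosome 8 at 26254421 to 26254910 and 26254921 to 26255251, was 10 bp apart. Such pairs would be 1 region under a looser merge, and 253 neighbouring pairs lay within 200 bp. The most isolated member, on chromosome 3 at 45181888 to 45182465, was 3635022 bp from the next member, although a merged region of another class lay 690 bp away. Next were a region from 94289845 to 94290412 of chromosome 14 and the narrow site on chromosome 8 at 102371717 that also led in the subcutaneous libraries, whose nearest merged region of any class was 182561 bp away.

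Members were unevenly spread over the genome. Over the span of merged regions there were 7.32 members per Mb of autosome. Chromosome 11 held 10.5 per Mb, followed by chromosome 17 with 9.09 and chromosome 19 with 9.01, and chromosomes 11 and 19 are known as gene-dense. The lowest were chromosome 14 with 5.56 and chromosome 3 with 5.87. As a share of its own merged regions, chromosome 7 led with 25.4% (95% Clopper-Pearson interval 24.2% to 26.6%), ahead of chromosome 11 with 23.9% (22.8% to 25.1%), and their intervals overlap. Chromosome 13 was lowest with 19.6% (18.3% to 20.9%). These intervals cover counting error only.

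Within chromosomes, 439 of the 2376 windows of 1 Mb with a merged region (18.5%) held 50% of all members. The fullest was chromosome 7 from 52 to 53 Mb, with 46 members among 118 merged regions. Next were chromosome 10 from 79 to 80 Mb and chromosome 19 from 5 to 6 Mb, each with 44, chromosome 17 from 56 to 57 Mb with 42 and chromosome 2 from 32 to 33 Mb with 41. In chromosome 17 from 56 to 57 Mb, members were 46.2% of all merged regions, against a median of 20% over the 1809 windows with at least 10 merged regions. No member lay in 372 windows, and the one of these with most merged regions, chromosome 16 from 25 to 26 Mb, had 42 merged regions and 1 wide common region. Across windows the numbers of members and of other merged regions went together (Spearman's rho 0.842 over 2376 windows, which share the same lists). The other regions were counted together, and the window on chromosome 17 held 0 wide common regions.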

How the data were processed

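ATAC-seq peak lists of 4 libraries (2 SAT, 2 VAT, grouped by sample title) were used. Per the submitters' processing notes, Bowtie2 and MACS2 were used on build mm9; versions, options, duplicate handling, read shifting and repeat filters were not stated there. The deposited lists give a position and a score per peak, with peaks listed per library; the scale of the score is not stated, so it served only for ranks within a list.

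Peaks were merged at 1 bp overlap with Python 3.11.15, numpy 2.4.6 and pandas 2.3.3. Merging and distances were checked against bedtools 2.31.1, and membership and depot order were tested on simulated data. All 17665 members entered every count, with no filter on low scores. Library values were compared by two-sided exact permutation tests; no test was run over regions. Positions named are the extremes by score, by depot gap, at the width limit and by spacing, and the 5 fullest windows. Members, rules and lists were chosen with earlier results of these data known. The gene and promoter tables at hand follow GRCm38 and were not used.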

Additional observations from a re-analysis of the deposited data

Results flagged for a closer look

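Regions of the same kind on the sex chromosomes lay outside the comparisons above. On chromosome X, 520 regions under 1000 bp had a peak in all 4 libraries, and on chromosome Y 74 did; they are listed because the autosomal rule left them out. Their weakest peak had a median list percentile of 50.6 on X and 57.4 on Y, against 50.7 for the autosomal members, and 2 of them were in the top 0.1% of all 4 lists. With 2 libraries per depot no library could be examined as an outlier within its group.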

How the results depend on the processing

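The number of members (17665) moved to 9051 when each list kept its top 50%, to 8498 with a width limit of 500 bp, and to 18216 to 33422 when 1 library was left out, highest without SAT 2. The depot difference in median list percentile (-13.7) turned to 0.539 by common rank, a scale that fixes it near 0, and kept its sign in the other settings, with -27.4 without SAT 1 and -1.79 without SAT 2. With the replicate number as a block (replicate block) it was also -13.7, with p = 1 by an exact sign-flip permutation test (differences of 0.0654 for replicate 1 and -27.5 for replicate 2). The labels do not tie the numbers, and deviations of SAT 1 and VAT 1 from their depot means correlated at 0.229 across members. The depot difference in rank agreement lay between -0.0784 and 0.0677 with 1 library left out, positive only without SAT 1. Of members, SAT led in 30.9% to 35.7% and VAT in 30.7% to 34.8% with 1 library left out, by construction, and in 2.56% and 32.7% by list percentile, where members stood lowest in SAT 2. Extreme sites numbered 90 with a limit of the top 1%. Median spacing was 25820 bp with 50% reciprocal overlap, 22931 bp with peaks within 500 bp merged, 39556 bp in the top 50%, 30081 bp with lists of equal length, 32316.5 bp under 500 bp, and 9883 to 18566.5 bp with 1 library left out; fewer or more members give wider or closer spacing. Under 200 bp, in settings added after seeing the data, SAT led in 63.1% in the top 50% and 63.5% with lists of equal length. It led in 19.4% by list percentile and in 35.8% to 74.6% with 1 library left out. VAT led there in 0% in the top 50%, 1.04% with lists of equal length, 16.2% by list percentile and 9.61% to 29.8% with 1 library left out. Planned counts of motifs, repeats and genes were not run, since they need build mm9. Depth is unknown, so absence of a peak sets no detection limit.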

Other observations

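Members near the start of the chromosome sequence were set apart after the data were seen. Within 500 kb of the first merged region of their chromosome lay 111 members, on 17 chromosomes. Of these, 24 (21.6%) were under 200 bp, against 2.28% of all members, and their median width was 441 bp. Both SAT ranks stood above both VAT ranks in 34 (30.6%, against 15.3% of all autosomal common regions) and below them in 15 (13.5%, against 14.8%), and 14 of the 34 were under 200 bp. The median common rank was 38.9 in SAT 1, 55.6 in SAT 2, 34.4 in VAT 1 and 36.7 in VAT 2, so SAT 2 stood apart here as it did among the narrowest members. Of the 19 extreme sites, 1 lay in this part.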
